A study of Mus musculus with 35 samples.

Results

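Acinar enzyme genes encode the digestive enzymes, and their cofactors, that the exocrine pancreas secretes into the gut. The 9 genes described here are *Prss2*, *Cela1*, *Cela2a*, *Cpa1*, *Cpb1*, *Ctrb1*, *Pnlip*, *Clps* and *Cel*. They were taken by gene name from the 53465 genes of the count table, in which each name had 1 row, and were followed across all 35 libraries by organ, day and *Smad4* label. The libraries hold RNA of tumor cells sorted for the red fluorescent reporter mKate2 from pancreatic tumors (10 libraries), liver metastases (11) and lung metastases (14). All tumors came from KC-shSmad4 cells, luciferase-labelled lines grown from mouse pancreatic ductal adenocarcinoma (PDAC) that carried Ptf1a-Cre and Rosa26 LSL-rtTA3-IRES-mKate2, in which a GFP-linked shRNA against *Smad4* sits in the *Col1a1* locus and is switched on by doxycycline (Dox). Cre was driven by *Ptf1a*, so that the alleles were recombined in pancreatic cells of the donor mice, whereas the hosts, athymic nude (Foxn1nu) mice, carried no mKate2. The hosts were females 6 to 8 weeks old and the tumor cells came from male mice. The cells were placed in the tail of the pancreas, in the spleen, which was then removed, or in the tail vein. Hosts received Dox chow from before the injection. In one arm Dox was withdrawn at 4 weeks for the pancreas, 5 for the liver and 6 for the lungs, and cells were sorted at day 7 or 14. The labels name the arm kept on Dox Smad4OFF and the withdrawn arm Smad4ON. In the order off and on, day 7 held 3 and 2 libraries of pancreas, 2 and 3 of liver and 4 and 2 of lungs, and day 14 held 2 and 3, 3 and 3, and 4 and 4.

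Acinar cells make up most of the exocrine pancreas and devote most of their protein synthesis to digestive enzymes. The proteases are stored in granules as inactive zymogens until they reach the intestine, where trypsin cleaves and activates the others. Transcription of these genes in acinar cells depends on PTF1, a complex of the bHLH factor PTF1A, an E protein and RBPJL or RBPJ, which binds an E-box next to a TTTCCC box. PDAC cells have a ductal identity, and the acinar program is lost as acinar cells turn into ductal precursor lesions.

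Library totals ranged from 11885461 to 43571007 reads assigned to genes (median 19415320). Levels are given as CPM, the reads of a gene per 1000000 of these reads, and the floor of 3 counts lay between 0.0689 and 0.252 CPM. Intervals and floors cover counting error only. *Smad4* mRNA went against the labels, with 77.9 to 132 CPM in the 18 libraries labelled off and 14.4 to 23.2 CPM in the 17 labelled on. The names below are therefore labels, not a state of the gene. The library of mouse 2 in the liver group labelled off on day 7 is labelled paired-end and the other 34 single-end. It stood apart, with a summed fibroblast marker level of 31050 CPM against 251 to 4438 in the other liver libraries, and it was set apart from the organ comparisons. Counts of the mitochondrial gene *mt-Co3* were present in 10 libraries, none of them from pancreas. The labelled cell type was checked on 10 markers of ductal tumor epithelium, led by the keratins *Krt8* and *Krt18*, and all 10 had counts in every library. Their summed level was lowest in pancreas (2965 to 9032 CPM, n = 10) and 3712 CPM in the paired-end library, against 13308 to 19562 in the single-end liver libraries and 7765 to 14522 in lungs.

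*Ctrb1*, the precursor of chymotrypsin B (chr8:111686519-111691010, minus strand, build GRCm38), ranged from 254.9 to 1207 CPM in the 10 pancreas libraries with a median of 729. In the 10 single-end liver libraries it lay between 0 and 0.465 CPM (median 0.0673), and in the 14 lung libraries between 0 and 0.252 CPM (median 0.0258). Every pancreas library was above every metastasis library, and 2 liver and 7 lung libraries had no *Ctrb1* read. *Prss2*, an anionic trypsinogen (chr6:41521787-41525079, plus strand), ranged from 122 to 558 CPM in pancreas (median 317). Its range was 0.0262 to 0.459 CPM in liver (median 0.122) and 0 to 0.59 CPM in lungs (median 0.188), at most 20 counts in a library. *Prss2* has near-identical trypsinogen copies, so its counts are uncertain as far as the counting could divide reads among them. Both protease precursors were thus plentiful in all pancreas libraries and below 1 CPM in all 24 single-end metastasis libraries.

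The elastase precursors *Cela1* and *Cela2a* are serine proteases. *Cela2a* (chr4:141814962-141826160, minus strand) ranged from 64.3 to 321 CPM in pancreas (median 159) and gave 2 counts in the 10 single-end liver libraries together and 2 in the 14 lung libraries. *Cela1* (chr15:100674425-100687920, minus strand) was at a like level in pancreas, from 56.7 to 293 CPM (median 165), but was also counted in every metastasis. It held 4.34 to 16.6 CPM in liver (median 9.71) and 2.57 to 13.6 CPM in lungs (median 7.27). The carboxypeptidase precursors *Cpa1* (chr6:30639218-30645363, plus strand) and *Cpb1* (chr3:20248264-20275733, minus strand) trim the ends of peptides that the endopeptidases release. *Cpa1* ranged from 85.7 to 364 CPM and *Cpb1* from 62.5 to 312 CPM in pancreas (medians 194 and 166). Neither exceeded 4 counts in any single-end metastasis library.

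The remaining genes act on lipids. *Pnlip* (chr19:58670365-58681786, plus strand) encodes pancreatic lipase, *Clps* (chr17:28558210-28560766, minus strand) the colipase that anchors it to fat droplets, and *Cel* (chr2:28555795-28563403, minus strand) a bile salt-stimulated lipase. Their ranges in pancreas were 102 to 554 CPM for *Pnlip* (median 265), 34.6 to 172 CPM for *Clps* (median 119) and 62.4 to 413 CPM for *Cel* (median 174). *Pnlip* was the gene with the fewest counts in the single-end metastases, 1 over the liver and 1 over the lung libraries. *Clps* reached at most 3 counts and *Cel* at most 4 counts in a single-end metastasis library. The lipid enzymes therefore showed the same split between sites as the proteases other than *Cela1*.

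**Figure D1:**
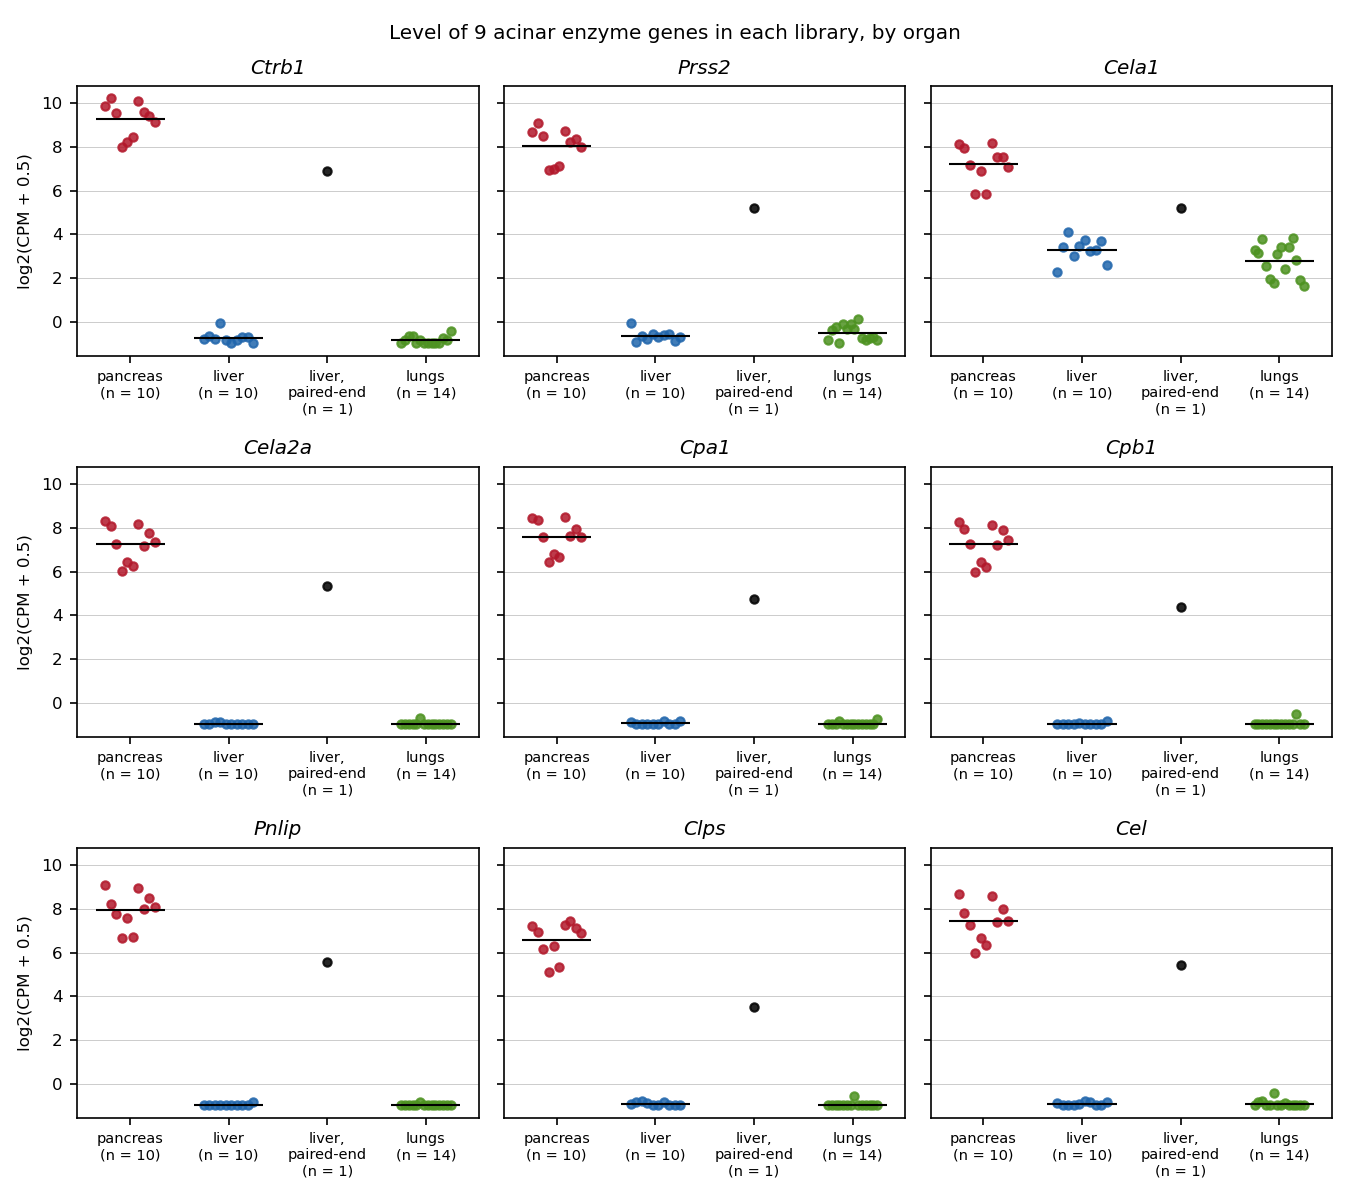
Level of each of the 9 genes in each library on the scale log2(CPM + 0.5), by organ, with the paired-end liver library apart; points are libraries and bars are means on this scale. All 10 pancreas libraries lie above all 24 single-end metastasis libraries in every panel, *Cela1* alone keeps a level well above 0 in liver and lungs, and the paired-end library lies between.

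Which of these genes were higher at the primary site was tested in a single fit of the 12 groups of organ, day and label over the 34 single-end libraries. Calls required more than a 2-fold difference and, in edgeR's quasi-likelihood test, a Benjamini-Hochberg adjusted P below 0.05. All 9 passed the filter on low counts, but the 8 other than *Cela1* owed this to the pancreas groups, where they were high. All 9 were called higher in pancreas than in liver, where 10.6% of the 18638 genes tested were called in that direction, and all 9 were called higher in pancreas than in lungs, against 8.37% of the genes tested. For *Cela1* the edgeR adjusted P values were 6.72e-09 against liver and 3.09e-11 against lungs. For the other 8 the calls are a description, since the filter admitted them only through their pancreas levels. Every pancreas library lay above all 24 single-end metastasis libraries for 9 of 9 genes, which held for 2.25% of the genes tested. Fewer cells that make these transcripts and less transcript per cell cannot be told apart in such libraries.

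The size of the difference is given as a ratio of pooled CPM, because several groups had no reads at all. *Cela1* was 18.0-fold higher in pancreas than in liver (95% counting interval 17.4 to 18.7) and 24.2-fold higher than in lungs (23.1 to 25.4). On the log2 scale of the fit its differences were 4.19 ± 0.40 (SE) and 4.68 ± 0.31. *Prss2* was 1933-fold higher than in liver (1457 to 2621) and 1416-fold higher than in lungs (1085 to 1885). For *Ctrb1* the ratios were 6630 (4721 to 9633) and 12878 (7675 to 23556), and for *Cel* 9233 (4481 to 22966) and 7608 (3692 to 18925). The *Clps* ratio was 4618 against liver (2241 to 11488) and rested on 3 counts in lungs, at 8879 (3038 to 43061), all from mouse 2 labelled off on day 14. The *Cel* ratio to lungs became 16543 without mouse 2 labelled on of day 7, which gave 4 of its 7 counts. *Cela2a*, *Cpa1*, *Cpb1* and *Pnlip* had between 1 and 4 counts in either metastatic site as a whole. Their ratios to liver ranged from 17048 (6658 to 62572) for *Cpa1* to 89393 (16044 to 3530900) for *Pnlip*. Without the single library that gave the *Pnlip* count, mouse 3 labelled on of day 14, *Pnlip* was at least 27984-fold higher by the floor of 3 counts over the group, and without mouse 1 labelled off of day 7 the *Cpa1* ratio was 29207. *Cela1* was thus the one gene of the 9 whose ratio lay under 1000 against both sites.

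The share of *Cela1* within the 9 genes was high in metastases although its own level was lower there. *Cela1* gave 5.53% to 9.79% of the counts of the 9 genes in the pancreas libraries, 87.1% to 98.9% in the single-end liver libraries and 79% to 99.6% in the lung libraries. The mean share was 7.24% ± 1.12 (SD, n = 10) in pancreas, 95.8% ± 3.65 (SD, n = 10) in liver and 93.5% ± 5.83 (SD, n = 14) in lungs. These shares are a description with no test, since *Cela1* is described as the one gene counted in every metastasis, and its share follows from the near absence of the other 8. Summed over all 9 genes the level was 846 to 3808 CPM in pancreas (median 2284), which is 0.0846% to 0.381% of all counts. It was 4.98 to 16.9 CPM in liver and 2.98 to 13.7 CPM in lungs. Without *Cela1* the sum of the other 8 was at most 0.643 CPM in a single-end liver library and 0.762 CPM in a lung library.

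**Figure D2:**
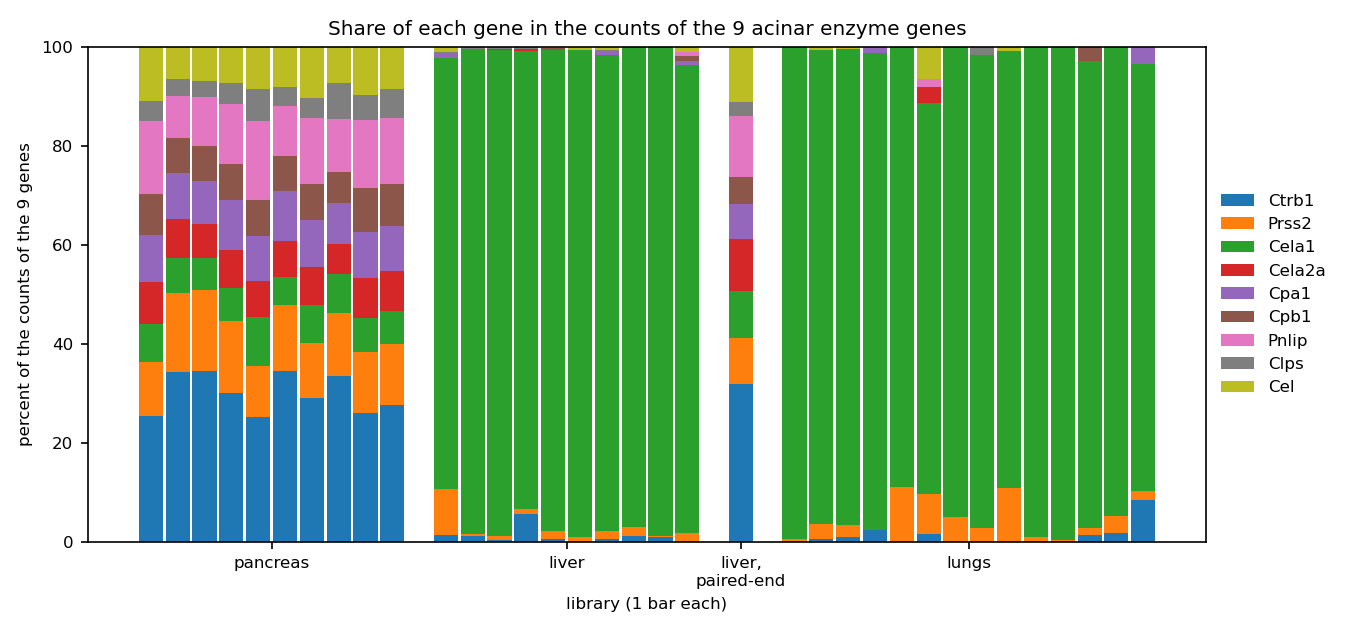
Share of each gene in the counts of the 9 genes, in percent, with 1 stacked bar per library grouped by organ. *Ctrb1* is the largest share in every pancreas bar (25.2% to 34.6%) and in the paired-end liver bar (31.8%), while *Cela1* takes 79% or more of every other metastasis bar.

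Promoter sequences are shown for 4 of these genes because the 9 genes moved together between sites while *Cela1* differed in size. They are the RefSeq windows from 250 bases before to 50 bases after the start of each gene, build GRCm38.p6, printed 5′ to 3′ on the strand of the gene. Of the 9 genes, 8 had such a window and *Clps* is named only. Capitals mark CACCTG, an E-box, TTTCCC, the box next to it in PTF1 sites, and TATAAA, each searched on both strands, so that CAGGTG and GGGAAA are the same motifs on the other strand. *Cela1* is shown as the gene that was counted in every metastasis, *Prss2* as the trypsinogen with all 3 motifs, *Cel* for its 4 E-boxes and *Pnlip* as a window with neither box.
Cela1 (chr15:100687871-100688170, minus strand): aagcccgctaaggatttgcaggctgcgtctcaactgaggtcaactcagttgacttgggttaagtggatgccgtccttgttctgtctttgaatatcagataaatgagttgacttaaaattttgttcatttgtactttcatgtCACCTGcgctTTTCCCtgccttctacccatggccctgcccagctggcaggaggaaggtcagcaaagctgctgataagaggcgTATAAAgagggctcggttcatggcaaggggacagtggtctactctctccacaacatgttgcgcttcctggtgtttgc
Prss2 (chr6:41521526-41521825, plus strand): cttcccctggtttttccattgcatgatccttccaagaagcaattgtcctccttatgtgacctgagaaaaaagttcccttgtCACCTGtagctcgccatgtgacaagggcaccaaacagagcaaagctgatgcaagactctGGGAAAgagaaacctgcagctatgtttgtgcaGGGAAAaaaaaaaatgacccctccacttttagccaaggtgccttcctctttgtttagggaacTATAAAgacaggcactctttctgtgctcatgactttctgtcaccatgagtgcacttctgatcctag
Cel (chr2:28563354-28563653, minus strand): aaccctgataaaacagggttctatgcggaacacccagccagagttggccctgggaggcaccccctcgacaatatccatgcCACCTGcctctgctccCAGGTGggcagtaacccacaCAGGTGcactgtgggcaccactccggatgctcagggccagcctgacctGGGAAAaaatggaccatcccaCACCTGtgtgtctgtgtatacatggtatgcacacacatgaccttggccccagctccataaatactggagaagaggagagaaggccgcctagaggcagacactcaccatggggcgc
Pnlip (chr19:58670115-58670414, plus strand): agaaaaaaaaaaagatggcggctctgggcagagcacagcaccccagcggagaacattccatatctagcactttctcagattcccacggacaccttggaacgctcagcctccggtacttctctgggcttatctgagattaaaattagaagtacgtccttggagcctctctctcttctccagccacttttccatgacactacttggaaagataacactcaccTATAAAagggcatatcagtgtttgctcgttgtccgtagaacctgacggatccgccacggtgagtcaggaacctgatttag

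CACCTG was found in 5 of the 8 windows (*Prss2*, *Cela1*, *Cela2a*, *Cpb1* and *Cel*) and in 20.2% of all 32851 promoter windows. TTTCCC was found in 6 of 8, all but *Cpb1* and *Pnlip*, against 25.3% of all windows, and TATAAA in 4 of 8 (*Prss2*, *Cela1*, *Cpb1* and *Pnlip*) against 13.6%. Both CACCTG and TTTCCC were in the windows of *Prss2*, *Cela1*, *Cela2a* and *Cel*, 4 of 8, against 4.86% of all windows. In the *Cela1* window the boxes start 109 and 99 bases before the gene start, 10 bases apart, and TATAAA starts 27 bases before it. *Prss2*, *Cela2a* and *Cel*, which were at or near 0 in the single-end metastases, thus shared both boxes with *Cela1*. A match is a description of these letters and no measure of binding.

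Liver and lungs were compared with each other in the same fit. Of the 9 genes 0 were called at the edgeR thresholds, where 8.64% of the genes tested were called in either direction, and 0 had an unadjusted P value under 0.05, and DESeq2 also called 0. For *Cela2a*, *Cpa1*, *Cpb1*, *Pnlip*, *Clps* and *Cel* the levels were too close to the floor in both organs for a difference to be detectable at this depth. *Prss2* and *Ctrb1* were also low, with log2 differences of -0.31 ± 0.42 (SE) and 1.29 ± 0.78 (SE). Their edgeR adjusted P values were 0.646 and 0.255. *Cela1* was 0.49 ± 0.28 (SE) higher in liver on the log2 scale, with an adjusted P value of 0.228 in edgeR. Its level averaged 9.81 ± 3.61 CPM in liver (SD, n = 10) and 7.22 ± 3.71 CPM in lungs (SD, n = 14), and the ranges overlapped. Restricted to groups labelled on, the *Cela1* difference was 1.23 ± 0.40 (SE) and was called (edgeR, adjusted P = 0.0271). Restricted to groups labelled off it was -0.25 ± 0.43 (SE), where the liver group of day 7 holds a single library.

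The paired-end liver library was intermediate for all 9 genes. It held 36.1 CPM of *Cela1*, 121 CPM of *Ctrb1*, 35.9 CPM of *Prss2* and 46.8 CPM of *Pnlip*. Its levels of *Cela2a* (39.9 CPM), *Cpa1* (26.4 CPM), *Cpb1* (20.5 CPM), *Clps* (10.8 CPM) and *Cel* (42.5 CPM) were likewise far above those of the other 10 liver libraries. For 9 of 9 genes this library was above all 10 single-end liver libraries and below all 10 pancreas libraries, a position that 0.628% of the genes tested held. The pooled pancreas level was between 4.60-fold (*Cela2a*) and 9.89-fold (*Clps*) above it. In the counts of the 9 genes its shares of *Cela1* (9.52%), *Ctrb1* (31.8%) and *Pnlip* (12.3%) lay within the range of the pancreas libraries. Its shares of *Cela2a* (10.5%) and *Cel* (11.2%) lay above that range, and those of *Prss2* (9.45%), *Cpa1* (6.96%), *Cpb1* (5.39%) and *Clps* (2.83%) below it. Other values of this library also stood apart. In it 10 of 10 fibroblast markers and 24 of 32 other acinar secretory genes lay above every single-end liver library. *Gcg* (glucagon) held 0.984 CPM and *Ins2* (insulin) 0.176 CPM, both listed at 0 in all 10 other liver libraries. Of 13 islet markers, however, only 4 lay above all 10, and 1 lay below. The islet sum of this library, 3.30 CPM, lay within their range (0.414 to 27.4 CPM). Its hepatocyte marker sum of 76.4 CPM lay below their range (218 to 1054), with 8 of 11 markers below all 10. Ductal markers (9 of 10 below all 10), the lung epithelium sum (77.4 CPM against 112 to 560.5) and the Reg family sum (122 CPM against 299 to 3619 CPM, and 382 to 1362 CPM in pancreas) were also low in it. The share of all genes above or below all 10 in this library is not given, so these marker counts are a description. The part of these lists in the level of the 9 genes was not tested, and read layout and this library cannot be told apart.

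**Figure D3:**
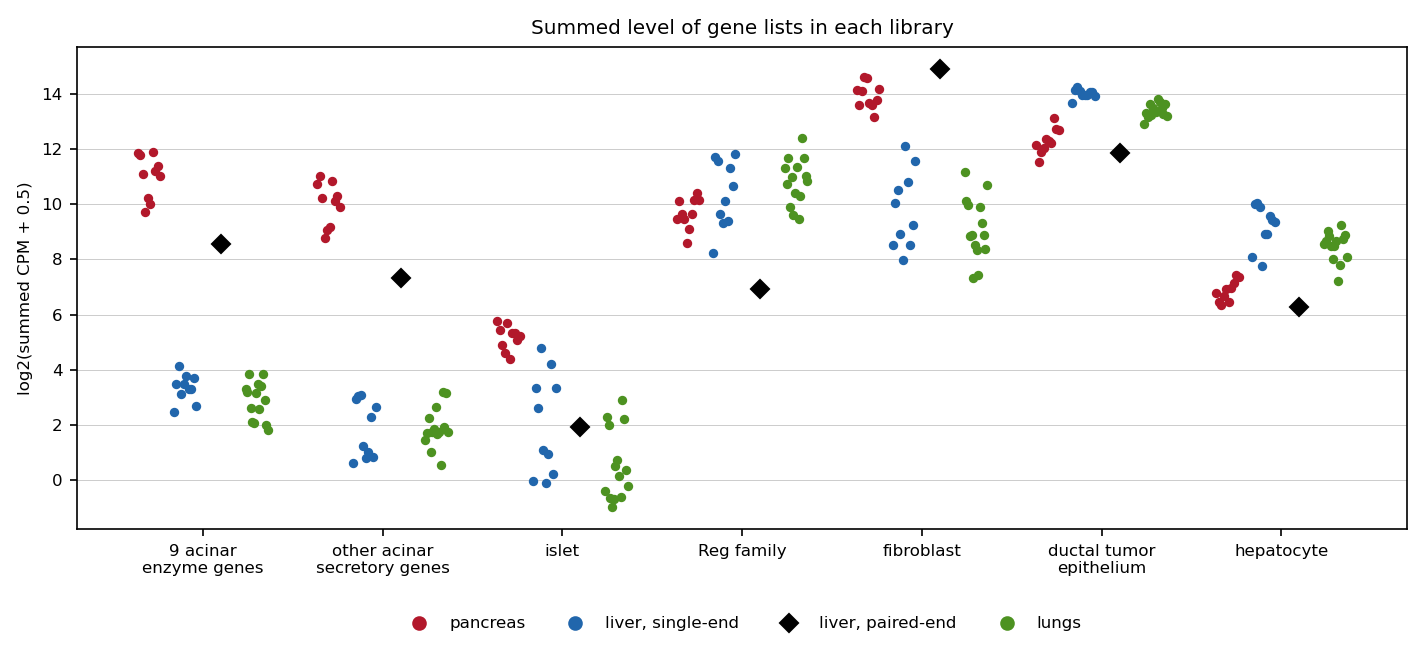
Summed level of 7 gene lists in each library on the scale log2(summed CPM + 0.5), with pancreas, single-end liver, paired-end liver (diamond) and lung libraries side by side. The diamond lies between pancreas and the other liver libraries for the 9 genes and the other acinar genes, above all liver libraries for fibroblast markers (31050 CPM) and below them for ductal and hepatocyte markers.

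Levels of different genes can be compared only per length. Divided by the length in kilobases of the principal transcript of the annotation, the median level in pancreas was highest for *Ctrb1* (830 CPM per kilobase), followed by *Prss2* (388), *Clps* (195), *Pnlip* (178) and *Cela1* (149). *Cela2a* (149), *Cpa1* (123), *Cel* (84.3) and *Cpb1* (61.1) came after them. The ranges of neighbours in this order overlapped, since the spread of a gene over libraries was 4.25-fold for *Cpa1* up to 6.62-fold for *Cel* between the highest and the lowest library. *Cela2a* and *Cpa1* changed places when the deposited gene length was used. In single-end liver and in lungs *Cela1* was first, at 8.76 and 6.56 CPM per kilobase, and *Prss2* second, at 0.15 and 0.23.

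The 9 genes varied together over the 10 pancreas libraries. Pearson's r of log2(CPM + 0.5) between pairs of them ranged from 0.772 (*Prss2* and *Clps*) to 0.995 (*Cela2a* and *Cpa1*), as a description over libraries that share the sort and the depth of each sample. The pancreas library labelled on of mouse 1 on day 7 was lowest for 8 of the 9 genes, and the library labelled off of mouse 1 on day 14 was lowest for *Cela1*. The library labelled off of mouse 2 on day 14 was among the highest pair for all 9. Differences in level between pancreas libraries were thus mostly shared by the proteases and the lipid enzymes.

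On day 7, 2 of the 9 genes, *Prss2* and *Ctrb1*, were called lower in the pancreas libraries labelled on, and the estimates of the other 7 were below 0. The summed level was 3761, 3515 and 2209 CPM in the libraries labelled off of mice 1 to 3, and 846 and 1210 CPM in those labelled on of mice 1 and 2. *Prss2* held 413, 558 and 359 CPM in the libraries labelled off against 122 and 126 CPM in those labelled on, and *Ctrb1* held 956, 1207 and 764 CPM against 254.9 and 305 CPM. For 8 of 9 genes, all but *Clps*, both libraries labelled on lay below all 3 labelled off, which held for 20% of the 14439 genes tested. By edgeR *Prss2* (log2 difference -1.86 ± 0.22 SE, adjusted P = 0.0189) and *Ctrb1* (-1.83 ± 0.23 SE, adjusted P = 0.0224) fell, 2 of 9, where 0.374% of the genes tested were called lower. The other 7 had edgeR log2 differences of -1.04 (*Clps*) to -1.74 (*Cela2a*) and adjusted P values of 0.0581 to 0.243. Unadjusted P values were under 0.05 for 8 of 9. DESeq2 called 8 of 9 lower, all but *Pnlip*, against 0.671% of the genes it tested.

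The calls rested on few libraries, while the estimates of *Prss2* and *Ctrb1* moved little. Those of some other genes moved more when any single library was left out. On the log2 scale *Clps* ranged from -1.729 to -0.5907 and *Pnlip* from -1.801 to -0.8443. *Cela1* ranged from -2.001 to -0.9776 and *Cel* from -2.085 to -1.257. Without mouse 1 or mouse 2 labelled on, the log2 differences were -1.86 and -1.88 for *Prss2* and -1.72 and -1.95 for *Ctrb1*, but edgeR called 0 of 9, the lone library left being assumed to vary like the others. It called 1 without mouse 1 and 5 without mouse 3 of the group labelled off, and 0 in a fit of all 12 groups together, where *Prss2* stood at -1.88 and *Ctrb1* at -1.84. The summed fibroblast marker level was 24422 and 25365 CPM in the libraries labelled on against 12435 to 18224 CPM in those labelled off. By edgeR 2 of the 10 fibroblast markers rose, where 138 of the 14439 genes tested were called higher. They were *Col3a1* (a fibrillar collagen, log2 difference 1.15, adjusted P = 0.0354) and *Pdgfra* (a receptor of fibroblasts, 2.93, adjusted P = 0.0499). The differences of the 10 ranged from -0.76 to 2.93, with a median of 0.68. Of 3 lung epithelium markers tested, edgeR called 1 higher, the surfactant protein gene *Sftpd* (1.51, adjusted P = 0.0288). The part of these lists in the fall of *Prss2* and *Ctrb1* was not tested.

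On day 14 the pancreas libraries did not repeat this order. The libraries labelled off were far apart, at 1026 CPM (mouse 1) and 3808 CPM (mouse 2) summed over the 9 genes, and the 3 labelled on lay between them at 2359, 2677 and 2068 CPM. *Prss2* held 138 and 421 CPM in the libraries labelled off and 302, 331 and 253 CPM in those labelled on. Only *Clps* had a library labelled on (172 CPM) above both libraries labelled off (39.7 and 156 CPM). By edgeR 0 of 9 were called, where 4.64% of the 14234 genes tested were called in either direction, 0 of 9 had an unadjusted P value under 0.05, and DESeq2 called 0. The log2 differences ranged from -0.32 ± 0.72 (SE, *Cel*) to 0.45 ± 0.65 (SE, *Clps*). Without mouse 2 of the group labelled off, *Cela1* (1.47 ± 0.21 SE) and *Clps* (1.74 ± 0.25 SE) were called higher in libraries labelled on by edgeR, and without mouse 1 the *Cela1* difference was -0.90 ± 0.19 (SE) and 0 of 9 were called.

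**Figure D4:**
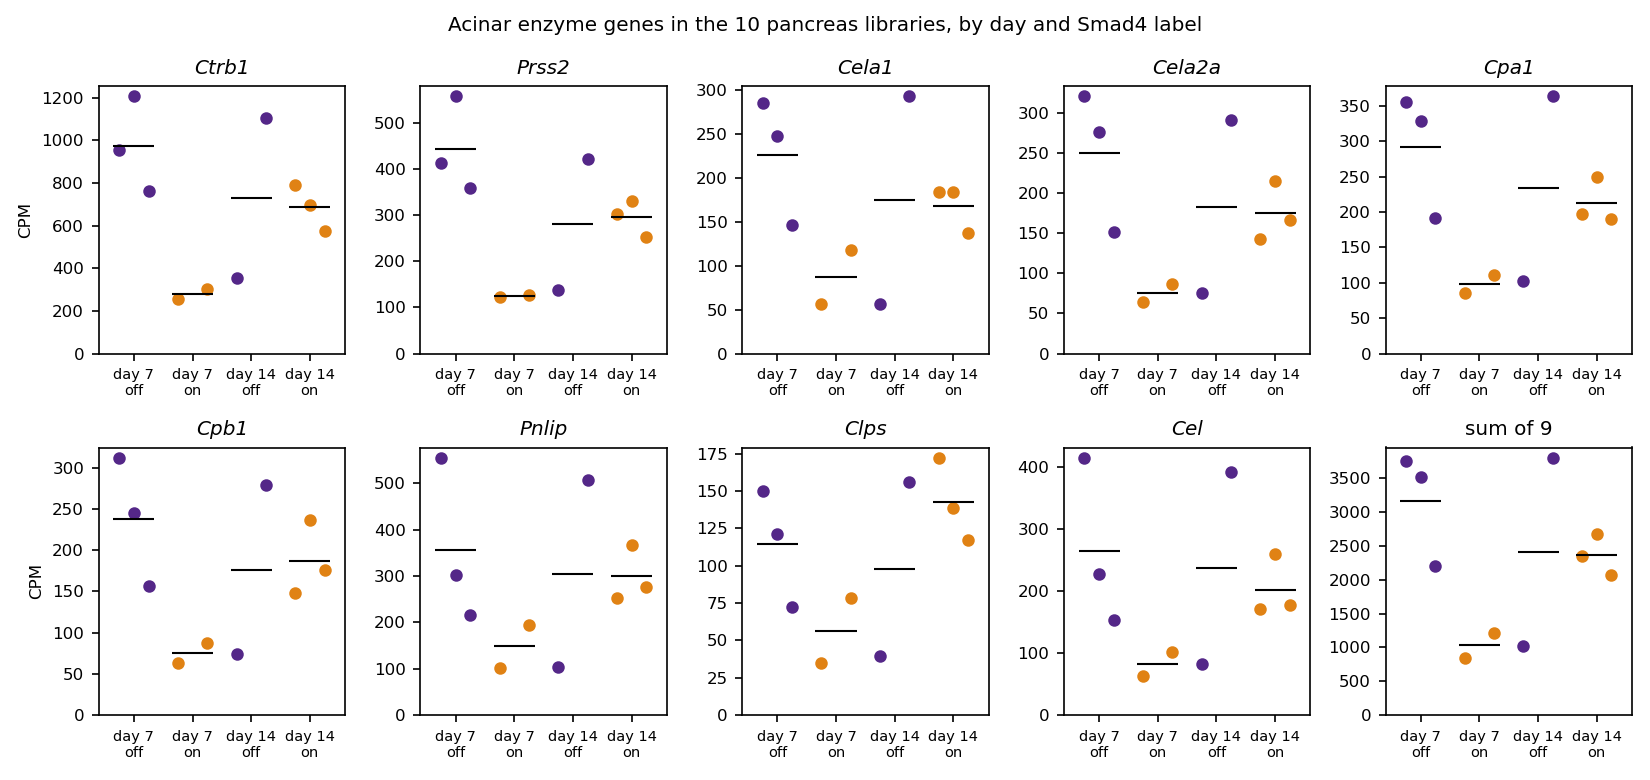
CPM of each gene and of their sum in the 10 pancreas libraries by day and label, with points for libraries and bars for group means, and each axis starting at 0. On day 7 the libraries labelled on (846 and 1210 CPM in sum) lie below those labelled off (2209 to 3761 CPM), and on day 14 those labelled on lie between the libraries labelled off (1026 and 3808 CPM).

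Whether the label difference itself changed between the days was tested as an interaction in the fit of 34 libraries. All 9 estimates were above 0 on the log2 scale, from 1.15 (*Pnlip*) to 1.85 (*Prss2*). By edgeR 0 of 9 and 0% of all genes tested were called, while 5 of 9 and 888 of all 18638 had an unadjusted P value under 0.05. DESeq2 called 0 of the 9. The lowest unadjusted value was 0.00161 for *Prss2* (1.85 ± 0.52 SE), whose adjusted P value in edgeR was 0.893. A change of the label difference was therefore not shown. Averaged over the labels, day 14 lay 0.29 (*Cela1*) to 0.58 (*Cel*) above day 7 in the pancreas on the log2 scale, 0 of 9 were called by edgeR against 0.00537% of the genes tested, 0 had an unadjusted P value under 0.05, and DESeq2 called 0.

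In liver and lungs the label comparisons could test *Cela1* and few others, since most of the 9 genes did not pass the filter there. In the liver on day 7, 3 of 9 were tested, with the paired-end library in the group labelled off. *Cela1* held 4.34 and 36.1 CPM in the libraries labelled off and 10.3, 16.6 and 7.59 CPM in those labelled on. By edgeR 0 of the 3 were called (lowest adjusted P = 0.0852, for *Prss2*), against 0.444% of the genes tested. DESeq2 called 8 of 9 lower in libraries labelled on, where 1246 of the 29248 genes it tested were called lower. Without the paired-end library edgeR called 0 of the 3 and the *Cela1* log2 difference turned from -1.06 ± 0.91 (SE) to 1.34 ± 0.52 (SE). Leaving out mouse 1 of the group labelled off leaves the paired-end library alone in that group, so that fit compares this library by itself with the group labelled on.

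In the other 3 label comparisons edgeR did not call *Cela1*. In the liver on day 14 it held 10.4, 12.9 and 8.99 CPM in the libraries labelled off and 9.1, 12.3 and 5.52 CPM in those labelled on (log2 difference -0.33 ± 0.34 SE, edgeR adjusted P = 0.815). On day 7 in the lungs it held 9.23, 8.29, 13.2 and 5.4 CPM in the libraries labelled off and 3.37 and 2.87 CPM in those labelled on. That difference was -1.41 ± 0.36 (SE) on the log2 scale with an edgeR adjusted P of 0.768 and an unadjusted one of 0.00611, and DESeq2 called it (adjusted P = 0.0453). On day 14 in the lungs the values were 7.94, 10.1, 4.76 and 10.03 CPM with the label off and 13.6, 6.6, 3.25 and 2.57 CPM with the label on (-0.39 ± 0.49 SE, edgeR adjusted P = 0.889). Over all genes tested, edgeR called 0% in day 14 liver (1447 genes with an unadjusted P value under 0.05, 339 called by DESeq2), 0% in day 7 lungs (793 and 112) and 0.0271% in day 14 lungs. A replicate block by mouse number raised the latter from 3 higher and 1 lower to 82 higher and 27 lower. With it *Cela1* had a difference of -0.61 ± 0.43 (SE) and an edgeR adjusted P of 0.581. Same-numbered libraries of the lungs on day 14 also shared the presence or absence of *mt-Co3* counts, so this block need not reflect a pairing by mouse.

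Day 14 and day 7 did not differ for *Cela1* beyond the spread between libraries in either metastatic site. Its log2 difference was 0.51 ± 0.45 (SE) in liver, where 0.00537% of all genes tested were called, and 0.49 ± 0.38 (SE) in lungs, where 0% were called. None of the 9 genes was called in either organ by edgeR, with 0 unadjusted P values under 0.05 in each, or by DESeq2. *Cela1* was lower where *mt-Co3* was counted: among single-end liver libraries it was 5.52 to 8.99 CPM in the 3 with *mt-Co3* counts (median 7.59) and 4.34 to 16.6 CPM in the 7 without (median 10.4). In lungs it was 2.57 to 10.03 CPM in the 6 with such counts (median 4.00) and 3.37 to 13.6 CPM in the 8 without (median 8.76). The ranges overlapped in both organs, and the part of this difference in the label comparisons of *Cela1* was not tested.

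**Figure D5:**
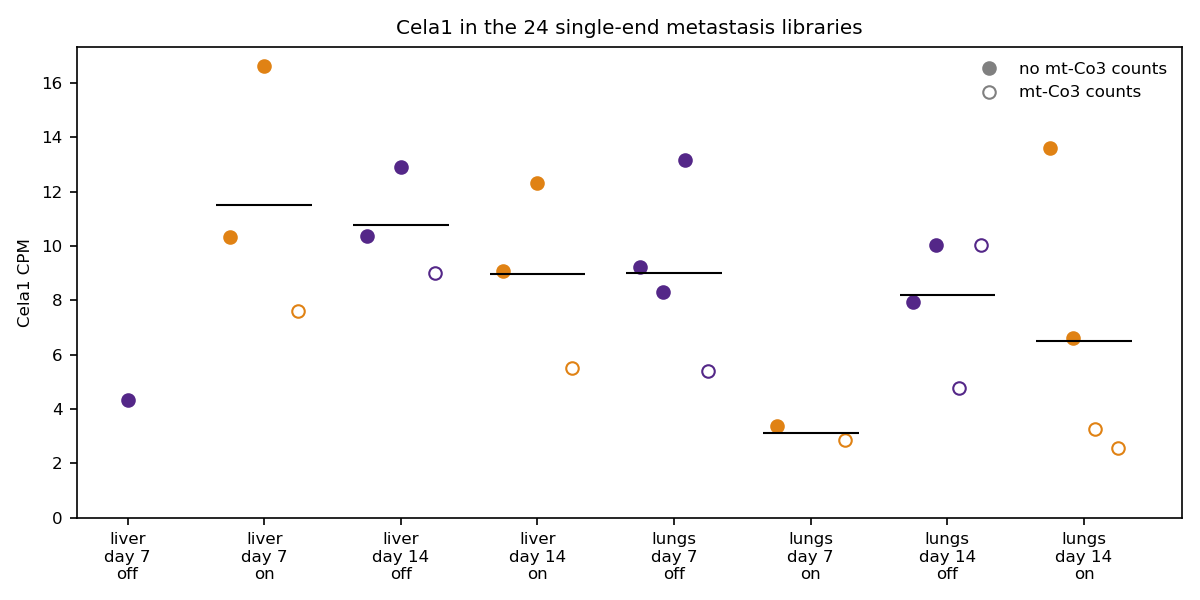
*Cela1* in CPM in the 24 single-end liver and lung libraries by day and label, with open points for libraries with *mt-Co3* counts and bars for group means. Values range from 2.57 to 16.6 CPM. In the lungs on day 7 they are 5.4 to 13.2 CPM with the label off and 2.87 and 3.37 CPM with the label on. The single library labelled off in the liver on day 7 (4.34 CPM) lies below the 3 labelled on.

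Of 33 other acinar secretory genes on a fixed list, 32 were in the table and 26 passed the filter. By edgeR 24 were called higher in pancreas than in liver (10.6% of all genes tested), and 24 than in lungs (8.37%). The list summed to 439 to 2088 CPM in pancreas, 1.01 to 7.98 CPM in single-end liver and 0.933 to 8.57 CPM in lungs. Its genes could thus pass the filter through the pancreas groups alone, and these counts are a description. The median log2 difference of those tested was 9.64 against liver and 8.54 against lungs, where the median of all genes was -0.06 in both comparisons. The 6 most abundant in pancreas were *2210010C04Rik* (a trypsinogen gene, 222 CPM on average), *Pnliprp1* (a lipase-related protein, 221 CPM), *Try5* (a trypsinogen, 170.1 CPM), *Rnase1* (pancreatic ribonuclease, 77.6 CPM), *Cela3b* (an elastase, 74.1 CPM) and *Ctrl* (a chymotrypsin-like protease, 72.7 CPM). The trypsinogen copies, and the amylase copies *Amy2a1* to *Amy2a5*, which lay between 0 and 0.164 CPM in every pancreas library, share reads with near-identical genes and are uncertain. *Amy2b*, pancreatic amylase, held 5.25 to 36.4 CPM in pancreas. On day 7 in the pancreas, 5 of the 23 tested fell in libraries labelled on by edgeR, against 0.374% of all genes tested. They were *Try5* (-2.45), *Try10* (-2.74), *Pnliprp1* (-1.61), *Pnliprp2* (-2.05) and the granule protein gene *Gp2* (-2.27, each on the log2 scale). On day 14 only *Try4* was called (-4.57, adjusted P = 0.0471 by edgeR), where 4.64% of all genes tested were called in either direction. *Try4* ranged from 0.401 to 82.3 CPM over the pancreas libraries.

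Among the genes whose level over the 34 single-end libraries was most like the mean of the 9 on the log2(CPM + 0.5) scale were *Rnase1* (Pearson's r 0.999), *2210010C04Rik* (0.999), *Cela3b* (0.999), *Ctrc* (0.996), *Amy2b* (0.996), *Gp2* (0.995), *Klk1* (0.995), *Ctrl* (0.993) and *Try5* (0.993). Since the groups form 2 clusters, pancreas and metastases, these values mostly restate that split. Within the 10 pancreas libraries alone the leading genes included *Rnase1* (0.99), *Cela3b* (0.966), *Pnliprp2* (0.965), *2210010C04Rik* (0.952), *Ctrc* (0.949), *Sycn* (0.946), *Ctrl* (0.94), *Serpini2* (0.933) and *Cuzd1* (0.917). All of these are on the fixed list of acinar secretory genes. The points share library, sort and depth, and the values are a description.

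The transcription factors of acinar cells were scarce at every site, apart from *Gata4*. *Ptf1a*, the pancreas-specific bHLH subunit of PTF1, lay between 0 and 0.56 CPM in pancreas and had 0 counts in every metastasis library. *Rbpjl*, its other pancreas-specific subunit, held 0.328 to 1.99 CPM in pancreas, 0.113 to 0.501 CPM in single-end liver and 0.165 to 1.47 CPM in lungs. *Nr5a2*, a nuclear receptor of acinar cells, reached at most 1.63 CPM in pancreas and 2.19 CPM in lungs, and *Bhlha15*, a factor of secretory cells also called Mist1, at most 1.57 CPM there and 3.92 CPM in liver. *Gata4* held 42.0 to 108 CPM over the 34 single-end libraries. By edgeR 3 of the 5 were called higher in pancreas than in liver (*Ptf1a*, *Rbpjl* and *Nr5a2*), against 10.6% of all genes tested. For lungs 1 of the 5 was called higher in pancreas (*Ptf1a*), against 8.37%. *Ptf1a* passed the filter only through the pancreas groups, so its calls are a description. In the pancreas label comparison of either day edgeR called 0 of 4 tested.

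The Reg family of secreted lectins, which acinar cells make under stress, divided by gene. *Reg2*, *Reg3a* and *Reg3d*, 3 of 6, were called higher in pancreas than in both metastatic sites. The shares of all genes tested were 10.6% for liver and 8.37% for lungs. *Reg2* held 29.6 to 272.9 CPM in pancreas and at most 1.51 CPM in the single-end metastases. *Reg3b* was lower in pancreas than in liver (-1.15 on the log2 scale) and lungs (-1.88), *Reg3g* was lower than in lungs (-2.34), and *Reg1* was called in neither comparison. Of the 6 genes, 3 were above all 24 single-end metastasis libraries in every pancreas library, which held for 2.25% of the genes tested. In the label comparisons of the pancreas 0 of 6 were called on day 7 and *Reg3b* rose on day 14 (1.02, adjusted P = 0.00196 by edgeR).

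Marker lists of other cells that the sort could hold did not all follow the 9 genes between the sites. Only the fibroblast sum was higher in every pancreas library than in all single-end metastasis libraries. The hepatocyte and lung epithelium sums had lower medians in pancreas than in either metastatic site. Islet markers, led by *Gcg* and *Ins2*, summed to 20.4 to 53.9 CPM in pancreas, 0.414 to 27.4 CPM in single-end liver and 0 to 7.00 CPM in lungs, where *Chgb*, a granule protein of endocrine cells, gave up to 20.2 CPM in liver and 5.58 CPM in lungs. *Gcg* lay at 7.21 to 28.2 CPM in pancreas, 0 in all single-end liver libraries and at most 0.257 CPM in lungs. Fibroblast markers, led by *Col3a1* and *Col1a1*, summed to 9335 to 25365 CPM in pancreas, 251 to 4438 CPM in single-end liver and 159 to 2319 CPM in lungs, and 10 of 10 were called higher in pancreas against either site. Hepatocyte markers, led by *Apob* and *Trf*, summed to 80 to 172 CPM in pancreas, 218 to 1054 CPM in liver and 149.6 to 603 CPM in lungs. Lung epithelium markers (*Abca3* and *Sftpd* leading) summed to 79.7 to 169 CPM in pancreas, 112 to 560.5 CPM in liver and 214 to 945 CPM in lungs. Leukocyte markers (*Cd74* and *Lyz2*) summed to 96 to 258 CPM, 29.2 to 393 CPM and 84.8 to 834 CPM in the same order. Endothelial markers (*Flt1* and *Cdh5*) summed to 147 to 388 CPM, 55.6 to 317 CPM and 144 to 522 CPM. Erythroid markers (*Hbb-bs* and *Hba-a1*) summed to 10.2 to 85.4 CPM, 2.47 to 57.9 CPM and 3.2 to 149 CPM. Against liver and lungs in turn, edgeR called higher in pancreas 7 and 9 of the 10 islet markers tested, 5 and 0 of 7 endothelial, 4 and 3 of 10 leukocyte and 3 and 2 of 5 erythroid markers, and 0 of the hepatocyte, ductal and lung epithelium markers. In the same order it called lower in pancreas 9 and 3 of the 10 ductal markers, those of the labelled tumor cell, 10 and 8 of 11 hepatocyte, 2 and 9 of 10 lung epithelium, 0 and 3 of 7 endothelial and 0 and 2 of 10 leukocyte markers. Of all 18638 genes tested, edgeR called 1980 and 1560 higher in pancreas and 1928 and 2526 lower, against liver and lungs in turn. These marker counts are a description. The part of the marker lists in the levels of the 9 genes was not tested.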

How the data were processed

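RNA-seq counts of 35 libraries were analysed. The authors deposited whole-number counts per gene, not normalized, made from 75 bp reads trimmed with Trimmomatic 0.36, aligned with STAR 2.5.3a to GRCm38 and counted with featureCounts 1.6.3. Settings for strand and for reads with several matches are not given in the sources used here, so genes with near-identical copies are uncertain. The paired-end library may have been counted differently. The deposited gene length was used only for levels per kilobase. Library totals ran from 11885461 to 43571007 counts, and precision at low levels is limited by the floor of 3 counts.

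The 9 genes and all gene lists were chosen with earlier results of these data known. Named beside them were the 6 most abundant other acinar genes, acinar genes called in a label comparison, the 10 genes most similar in pattern, and the leading pair of each marker list. Organ, day and interaction contrasts came from a fit of 12 groups over 34 single-end libraries, and label contrasts from separate fits per organ and day, with edgeR 4.0.16 in R 4.3.3 (filterByExpr, minimum count 10 and total 15, TMM, robust quasi-likelihood test). Calls needed more than a 2-fold difference and a Benjamini-Hochberg adjusted P below 0.05. SE is the log2 difference over the root of the F statistic. The labels number mice but do not say that they come from separate cultures, so P values measure the spread between these samples. Mouse numbers recur between label groups: deviations of same-numbered libraries correlated at 0.489 to 0.635 in the lungs on day 14, but not throughout the other comparisons (lowest -0.319). In the lungs on day 14 same-numbered libraries also shared the presence or absence of *mt-Co3* counts. A pairing by mouse and this split cannot be told apart. Alternatives were DESeq2 1.42.0, other size factors, filters and thresholds, the mouse number as a block, subsets of groups or libraries, and leaving out each library. Fits were tested on simulated data. Similarity used log2(CPM + 0.5), and Python 3.11.15 with scipy 1.17.1 was used for pooled ratios and their exact counting intervals. A planned permutation test of the *Cela1* share is not reported, because the near absence of the other 8 genes in metastases fixes its outcome. One gene of the similarity lists and one allele of the tumor cells are not reported here.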

Additional observations from a re-analysis of the deposited data

Results flagged for a closer look

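Single libraries stood apart by Dixon's test in 5 of 30 tests over the 3 lung groups of 4 libraries. The test flags about 1 in 20 groups by chance, but this rate does not hold where all other libraries have 0 counts. Any count is then flagged. All 5 are values of 1 to 4 counts in a group whose other libraries had 0 counts. They are *Cpa1* at 0.0651 CPM (labelled off, day 7, mouse 4) and 0.101 CPM (labelled on, day 14, mouse 4), *Clps* at 0.179 CPM and *Cel* at 0.0393 CPM (labelled off, day 14, mice 2 and 3), and *Cpb1* at 0.195 CPM (labelled on, day 14, mouse 2). No library stood apart in the sum of the 9 genes or in *Cela1*.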

How the results depend on the processing

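For pancreas against either metastatic site, 9 of 9 genes were called under every alternative run, leaving out each library included. With the paired-end library, or with only the groups labelled on, 1 gene (*Cela1*, log2 differences 1.09 and 1.23) was called between liver and lungs; with only those labelled off its difference was -0.25. On day 7 in the pancreas the 2 calls became 8 with DESeq2, 0 with the replicate block, 0 in one fit of 12 groups, and 0 to 5 when a library was left out. The replicate block changed no other count of called members; its *Cela1* difference on day 14 in the pancreas was 0.41, against -0.15 without it. In the liver on day 7 the 0 calls became 8 with DESeq2 and 8 in one fit of 12 groups. They also moved without mouse 1 of the group labelled off, a fit with the paired-end library alone in that group. In the lungs on day 7 DESeq2 called 1. On day 14 in the pancreas leaving out a library gave 0 to 2 calls. With a library left out, *Cela1* ranged from -0.90 to 1.47 for the label on day 14 in the pancreas, from -1.88 to 1.34 for the label on day 7 in the liver, and from -0.51 to 0.67 between the days in the pancreas; with the paired-end library it was -0.71 between the days in the liver. The causes were not tested. Ratios of pooled CPM without each metastasis library were computed after seeing the data. All other counts of called members stayed at their value. Without mouse 1 of the liver group labelled off on day 7, liver contrasts of the 34 libraries could not be fitted. TMM-scaled CPM kept all pancreas libraries above all metastases for 9 of 9 genes, and with 35 libraries the 10 most similar genes were the same genes in another order. Most of the 9 genes sit below the floor in metastases, which limits every label and day comparison there.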
